A study of Homo sapiens with 9 samples.

Results

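MOLT4, an established human line of T-cell acute lymphoblastic leukaemia (T-ALL), was compared here between libraries titled sunitinib and libraries titled DMSO, the vehicle. The members are 6 of the 9 libraries of the series, 3 in each group, chosen by their titles, which the column names of the deposited table share. Cells had been treated for 6 h, and the vehicle group is labelled with 0.1% DMSO. The remaining 3 libraries, titled MI-389, entered the same model and are otherwise used only to show where the sunitinib-titled libraries differed from them. Through the model they also shaped the estimate of spread behind every p-value against DMSO, and the choice of tested genes. With the 6 compared libraries alone 1360 genes passed the threshold used below, against 2370 with all 9. Sunitinib is a kinase inhibitor, and the series design describes MI-389 as a phthalimide conjugate, a class that binds cereblon, through which a ubiquitin ligase recognises its substrates. No genetic change is labelled in any group.

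The labels of the treated libraries contradict each other. The libraries titled sunitinib carry a source field that names MI-389 at 0.1 µM, and those titled MI-389 carry one that names sunitinib at 1 µM. The barcodes listed in the protocol follow the titles. The group is therefore written as sunitinib-titled throughout, and if the source field is right, the values below belong to MI-389 at the dose it names. The labels do not say whether the replicates were separate cultures, so the p-values measure the spread between these libraries, which may be technical. A single cell line was used.

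Sunitinib is known to occupy the ATP site of receptor tyrosine kinases, among them the VEGF and PDGF receptors, KIT and FLT3. Receptor kinases drive the RAS to ERK cascade, whose output includes its own inhibitors, the DUSP and Sprouty proteins. The cholesterol pathway is controlled by SREBP2, a membrane-bound factor released when sterol in the endoplasmic reticulum (ER) is low, and entry into S phase is controlled by E2F factors, which switch on replication genes. Of 9 receptor kinases listed as sunitinib targets, 7 lay below the level at which genes were tested. FLT1, a VEGF receptor, stood at 2.98, 2.05 and 2.9 FPKM (fragments scaled by transcript length and library size) in DMSO replicates 1 to 3 and at 2.08, 1.43 and 1.7 FPKM in the sunitinib-titled libraries, with an adjusted p of 0.0604. FLT3 stood at 2.13, 1.72 and 2.82 FPKM and at 1.57, 1.63 and 1.82 FPKM, and its groups also overlapped. The identity of the cells was checked on marker genes: all 23 T-lineage markers listed were at 1 FPKM or more. The B cell marker CD79A was at 9.07 ± 0.513 FPKM in DMSO (SD, n = 3) and 6.66 ± 0.578 FPKM in the sunitinib-titled libraries, while CD22, MS4A1 and PAX5 lay at the floor of the table near 0.1 FPKM. None of 7 myeloid markers reached 1 FPKM.

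In the sunitinib-titled libraries, genes that make cholesterol were higher than in DMSO. Genes of DNA replication, ribosome biogenesis, ER protein folding, cytosolic heat shock and ERK feedback were lower. By limma on log2(FPKM + 1), with Benjamini-Hochberg adjustment over 12301 tested genes, 19.3% of genes passed an adjusted p of 0.05 in either direction, 2.37% higher and 16.9% lower. Separation of all libraries of 1 group from all of the other was seen in 35.2% of genes, 5.89% higher and 29.3% lower. These shares are the background for the counts below that use every library as deposited. Other scalings and fits that leave out a library have backgrounds of their own. The median log2 difference was 0.34 among the 291 higher genes and −0.31 among the 2079 lower genes, so most changes that passed were smaller than 1.5-fold.

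DMSO replicate 1 stood apart in abundant genes, which bears on the counts. In the 166 genes above 1000 FPKM, the median log2 difference from the DMSO mean was −0.20 in DMSO replicate 1 and 0.10 in DMSO replicates 2 and 3, against −0.05 to −0.10 in the sunitinib-titled libraries. Its median there lay below those of all 3 sunitinib-titled libraries. Without it the count of genes past the threshold was 4250, without DMSO replicate 3 it was 1573, and without a sunitinib-titled library it was 948 to 1542. The 4250 were 294 higher and 3956 lower, of 12293 genes tested without DMSO replicate 1. Without sunitinib-titled replicate 2, 125 were higher and 823 lower, of 12317 tested. List counts from such fits are to be read against these larger or smaller backgrounds. The median difference over all tested genes was −0.10, and 72.3% of genes were below 0. When each library was instead centred on its median, the background became 10.3% higher and 15.2% lower, or 40.5% of calls higher against 12.3% as deposited. After quantile normalization it was 13.8% higher and 16.1% lower, and after cyclic loess 15.1% higher and 15.9% lower. Spike-in RNA was added per cell, and fewer cells and less RNA per cell cannot be told apart in such libraries. After rescaling to the spike-in RNAs, 266 genes were higher and 1959 lower, with a median difference of −0.095, near the values as deposited. The spike-in RNAs were already level as deposited. Their median log2 difference from the DMSO mean was −0.031 to 0.026 in the compared libraries. This rescaling could therefore change little and is no independent check of the scaling.

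**Figure D1:**
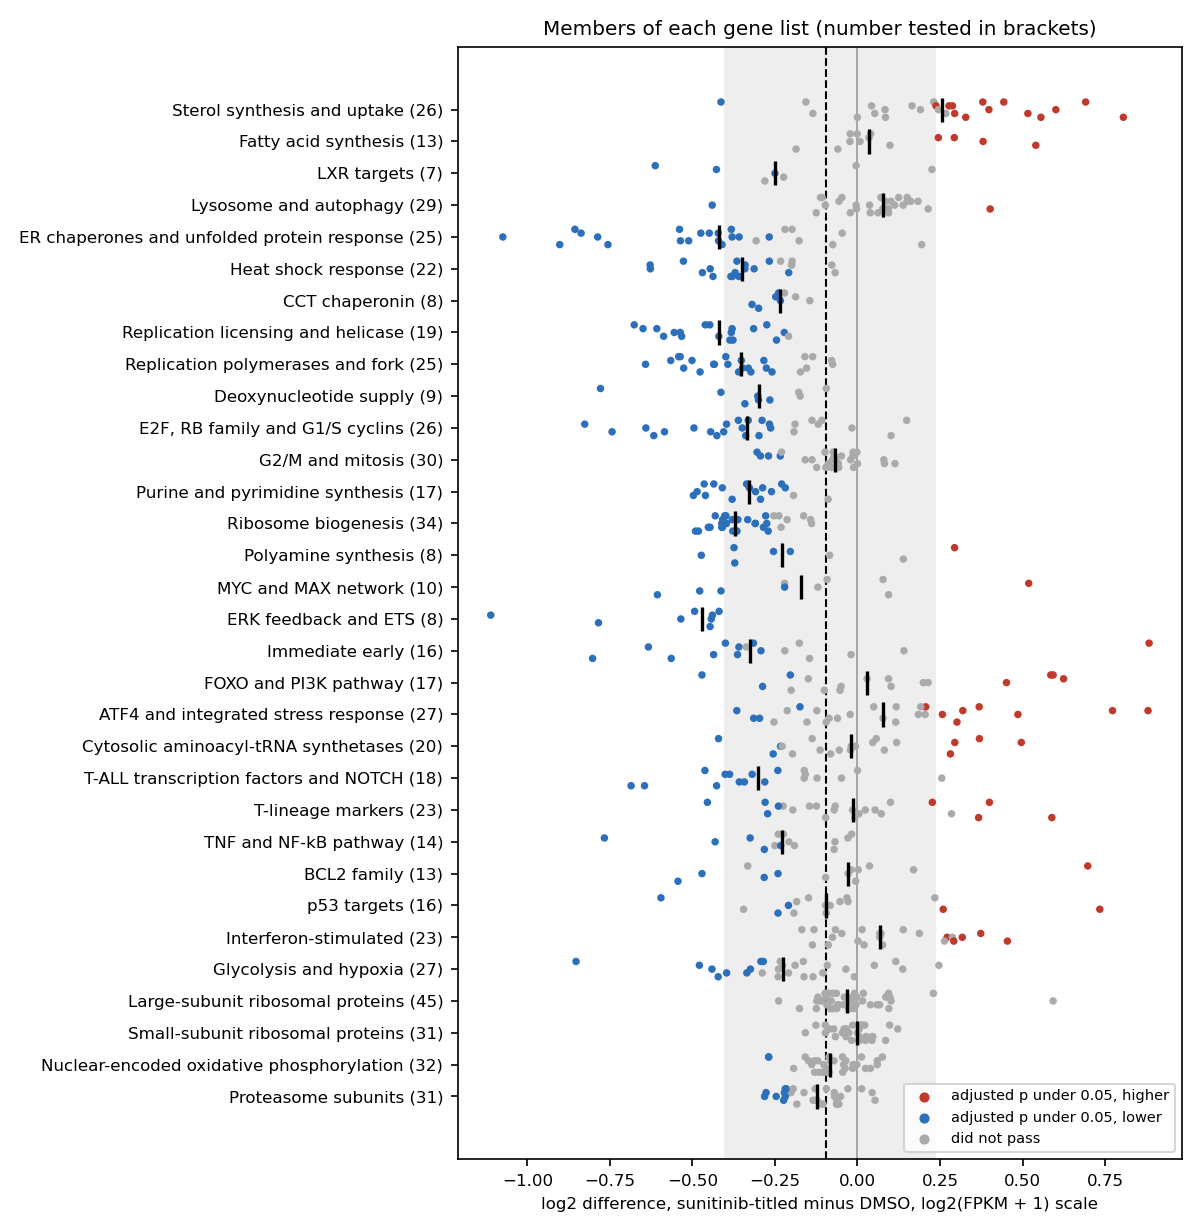
Each point is a tested gene of 1 list, placed by its log2 difference between the sunitinib-titled and DMSO libraries on the log2(FPKM + 1) scale, with red and blue for genes past an adjusted p of 0.05. Short black lines are list medians, the dashed line is the median of all tested genes (−0.10), and the grey band spans the 5th to 95th percentile of all tested genes. The sterol list stands to the right (median 0.26), and the ERK feedback (−0.47), ER (−0.42) and replication licensing (−0.42) lists stand to the left.

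The sterol list covers mainly enzymes from acetyl-CoA to cholesterol and the SREBP regulators. Of its 26 tested genes, 13 rose and 1 fell, and the median log2 difference was 0.26. HMGCS1, which makes the precursor of mevalonate, stood at 49.8, 53.1 and 59.5 FPKM in DMSO replicates 1 to 3 and at 96.3, 97 and 92.2 FPKM in sunitinib-titled replicates 1 to 3. LSS, the enzyme that closes the sterol rings, stood at 49.1, 55.6 and 60.2 FPKM and at 89, 93.4 and 85 FPKM. Every sunitinib-titled library lay above every DMSO library for both genes. HMGCS1 rose by 0.81 ± 0.067 (SE) on the log2 scale, with an adjusted p of 0.000487, and LSS by 0.69 ± 0.079, with an adjusted p of 0.00146.

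Other enzymes of the route were among those that rose. MVD, the mevalonate diphosphate decarboxylase, rose 1.52-fold, to 107, 112 and 100.5 FPKM. TM7SF2, a sterol reductase, rose 1.49-fold, FDFT1, the squalene synthase, 1.36-fold, and ACAT2, the cytosolic thiolase at the head of the route, 1.3-fold. These genes are textbook targets of SREBP2. INSIG1, the ER protein that retains SREBP when sterol is plentiful, stood at 228, 264 and 262 FPKM and rose to 343, 330.2 and 319 FPKM. The libraries of the groups did not overlap for any of these genes.

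The list was not uniform. FDPS, the farnesyl diphosphate synthase, stood at 266, 314 and 327 FPKM in DMSO and 333, 347 and 333 FPKM, with a log2 difference of 0.17 and an adjusted p of 0.156. TMEM97, the only member that fell, had a difference of −0.41 (adjusted p 0.0058) and was named after its value was seen; it encodes the sigma-2 receptor. Leaving out single libraries gave 10 to 17 rises, and 3 falls without DMSO replicate 1. Under other scalings of the libraries, rises numbered 20 with median centring, 21 after quantile normalization and 22 after cyclic loess, with 1 fall in each.

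Of 13 genes of fatty acid synthesis, 4 rose and 0 fell. ACSS2, which makes acetyl-CoA from acetate, stood at 4.43, 5.21 and 5.94 FPKM and rose to 8.43, 7.75 and 7.74 FPKM. The desaturases SCD, FADS2 and FADS1 rose 1.22-fold, 1.3-fold and 1.18-fold. ACLY, the citrate lyase that supplies acetyl-CoA for both lipid routes, had a log2 difference of 0.035 (95% interval −0.14 to 0.21) and overlapped. After quantile normalization or cyclic loess 7 rose. Without sunitinib-titled replicate 2, ACSS2 alone passed and SCD, FADS2 and FADS1 had adjusted p of 0.0602, 0.0564 and 0.091. Without replicate 1 or 3 of that group 2 genes passed, FADS1 did not pass without DMSO replicate 2 either (adjusted p 0.0647), and the list median turned from 0.035 to −0.05 without DMSO replicate 1.

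Targets of LXR, the nuclear receptor that senses surplus sterol and drives its export, lay on the other side of 0. Of 7 tested, 3 fell and 0 rose, with a median of −0.25. ABCA1, the cholesterol exporter, stood at 5.31, 4.78 and 5.26 FPKM in DMSO and at 3.11, 2.88 and 2.99 FPKM in the sunitinib-titled libraries, a difference of −0.61 ± 0.08 (SE; adjusted p 0.00236). Falls numbered 4 with median centring, 5 after quantile normalization and 4 after cyclic loess, with 1 rise in each. ABCG1, a related exporter, fell 1.35-fold. MYLIP, a ubiquitin ligase, had a difference of −0.28 and did not pass (adjusted p 0.146). It averaged 0.94 FPKM in DMSO and 0.60 FPKM in the sunitinib-titled libraries. MYLIP reached the tested level only through the MI-389-titled libraries, at 1.84 FPKM. NR1H3, which encodes 1 of the receptors, had a difference of 0.23, and its libraries overlapped. Sterol synthesis genes thus stood higher and sterol export genes lower in the same 3 libraries.

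Of 29 lysosome and autophagy genes, 1 rose and 1 fell, with a median of 0.076. WIPI1, which marks forming autophagosomes, rose 1.41-fold, and RRAGD, a GTPase that recruits mTORC1 to lysosomes, fell 1.39-fold. This count depended on the scaling: with median centring, 15 rose and 1 fell, while without DMSO replicate 1 as deposited 2 rose and 3 fell. LAMP1 and PSAP, both abundant lysosomal proteins, overlapped between groups as deposited.

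**Figure D2:**
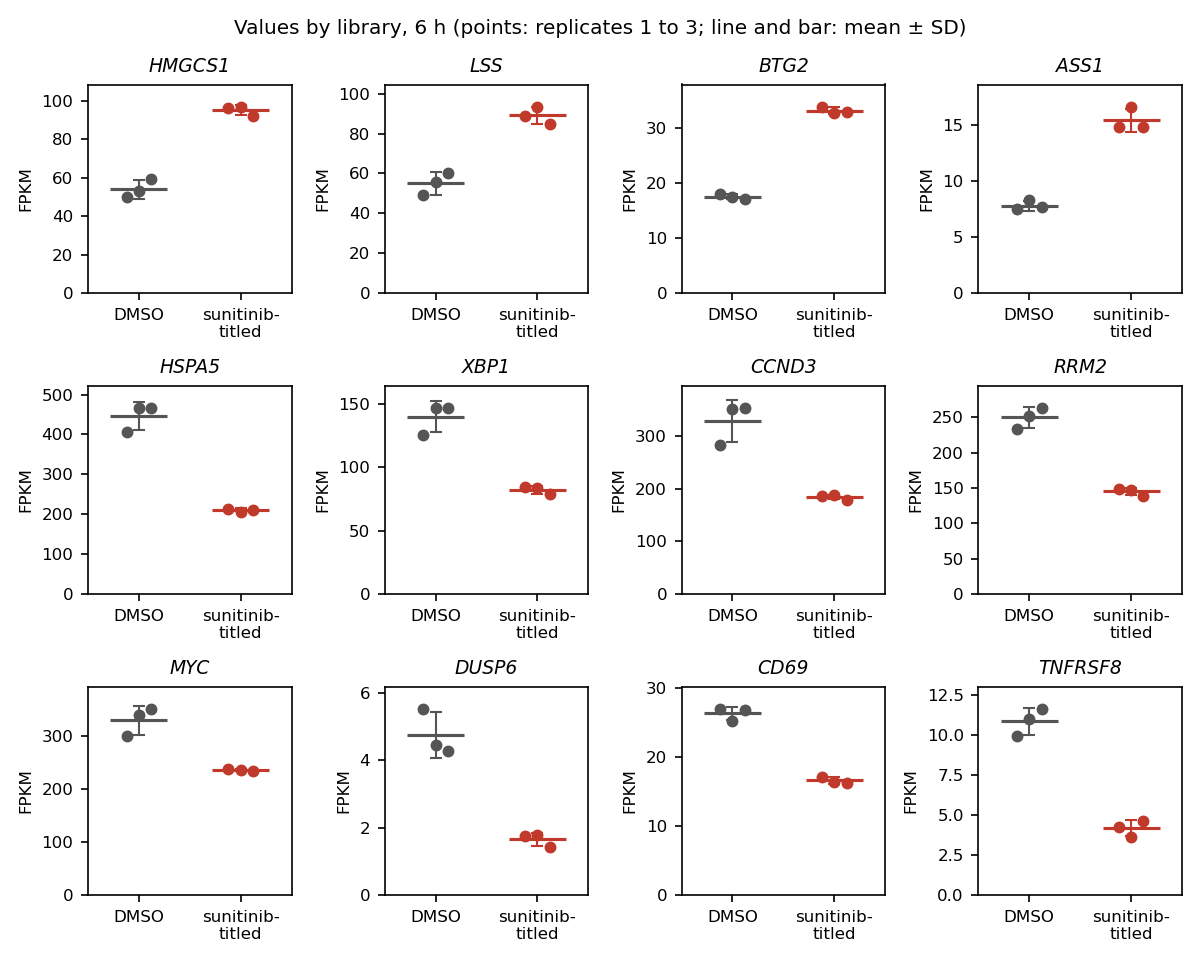
FPKM (linear axes from 0) of 12 genes in the 3 DMSO (grey) and 3 sunitinib-titled (red) libraries, where points are libraries in the order of their replicate numbers and lines with bars are means ± SD. No library of 1 group reaches into the other for any of the 12 genes; HMGCS1, LSS, BTG2 and ASS1 are higher and the other 8 lower in the sunitinib-titled libraries.

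ER chaperones and genes of the unfolded protein response were mostly lower in the sunitinib-titled libraries. This response senses misfolded protein in the ER through ATF6, IRE1 and PERK and raises chaperone transcription. Of 25 tested genes, 18 fell and 0 rose, with a median of −0.42. HSPA5, the main chaperone of the ER, stood at 407, 465 and 467 FPKM in DMSO replicates 1 to 3 and at 214, 207 and 212 FPKM in sunitinib-titled replicates 1 to 3. The gap between the groups exceeded the spread within either, and HSPA5 fell by 1.07 ± 0.064 (SE) on the log2 scale (adjusted p 0.000241).

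Promoter sequences of ER chaperone genes are shown because their shared element, the ER stress response element, was found in a larger share of this list than of all tested genes. The element was searched as CCAAT and CCACG with 9 bases of any kind between them, on both strands of the 300 bases around each start, in RefSeq promoters of GRCh38.p14, which is another build than the one the expression values were made on. It occurred in 26.1% of the promoters of the list and in 0.146% of those of all tested genes with an entry. A match is a description of letters, not a site or a cause. The CCAAT within it overlaps the box searched on its own, found in 87% of the list and 37.6% of tested genes. Capitals mark the element, on either strand, and each line reads 5′ to 3′ in the direction of transcription. The bases end at the start of transcription for HSPA5 (chr9:125241344-125241443, minus strand), HSP90B1 (chr12:103930310-103930409, plus strand) and XBP1 (chr22:28800570-28800669, minus strand). For CALR (chr19:12938369-12938468, plus strand) the last base printed is 141 bases before it.
HSPA5: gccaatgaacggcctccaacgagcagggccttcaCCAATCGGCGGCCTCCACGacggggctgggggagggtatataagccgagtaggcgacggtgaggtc
HSP90B1: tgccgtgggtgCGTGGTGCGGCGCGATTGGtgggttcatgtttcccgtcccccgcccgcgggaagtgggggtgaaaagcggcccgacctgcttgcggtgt
XBP1: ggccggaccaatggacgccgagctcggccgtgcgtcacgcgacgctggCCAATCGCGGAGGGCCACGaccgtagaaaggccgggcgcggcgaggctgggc
CALR: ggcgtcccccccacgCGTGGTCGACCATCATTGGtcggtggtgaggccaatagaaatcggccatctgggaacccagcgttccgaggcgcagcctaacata

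All 4 of these genes fell. The list holds 6 genes with the element, of which 5 fell: the fifth was CANX, the lectin chaperone calnexin, by 0.36 (adjusted p 0.0548 without sunitinib-titled replicate 3), and CRELD2, a secreted ER protein, had a difference of −0.31 and did not pass (adjusted p 0.0554). HSP90B1, the ER form of the HSP90 chaperone, stood at 778, 930.2 and 916 FPKM in DMSO and at 487, 489 and 487 FPKM in the sunitinib-titled libraries. XBP1, a transcription factor spliced by IRE1, stood at 126, 147 and 147 FPKM and at 84.4, 83.4 and 78.5 FPKM. CALR, the calcium-binding lectin chaperone calreticulin, fell by 0.42 on the log2 scale (adjusted p 0.0111). No sunitinib-titled library reached a DMSO library for any of the 4. CALR, CANX and CRELD2, and CDT1 among the promoters shown further on, were chosen after their values were seen.

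Other members fell as well. MANF, a secreted protein of the stressed ER, stood at 326, 359 and 360.4 FPKM and fell to 186, 179 and 192 FPKM. SDF2L1, a cofactor of ER chaperones, fell 1.83-fold, and HERPUD1, a component of ER-associated degradation, fell 1.46-fold. P4HB, an abundant disulphide isomerase, had a difference of −0.22 and did not pass (adjusted p 0.0847).

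Cytosolic chaperones of the heat shock response, which HSF1 controls, fell in 16 of 22 cases, with none higher and a median of −0.35. HSPA8, the constitutive HSP70, stood at 3562, 4472 and 4451 FPKM in DMSO and fell to 2911, 2909 and 2796 FPKM. HSPA1A and HSPA1B, the inducible HSP70 genes, both fell 1.56-fold; they are near-identical, so their separate values are uncertain. CHORDC1 and FKBP4, cofactors of HSP90, fell 1.39-fold and 1.37-fold, and HSPH1, a nucleotide exchange factor for HSP70, 1.31-fold. HSP90AB1, the constitutive cytosolic HSP90, had a difference of −0.23 and did not pass (adjusted p 0.073). Of the 8 subunits of the CCT chaperonin, which folds actin and tubulin, 5 fell (median −0.24), CCT5 by 0.32 and CCT6A by 0.30. CCT3, CCT4 and CCT7 did not pass. All 8 fell without DMSO replicate 1, 2 without any 1 of DMSO replicates 2 and 3 and sunitinib-titled replicate 1, and 1 without sunitinib-titled replicate 2 or 3.

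Nearly all genes that license replication origins before S phase fell. These encode the ORC, CDC6, CDT1 and MCM proteins that load the helicase, and the GINS proteins that activate it. Of 19 tested, 18 fell, with a median of −0.42; GINS4 was the exception, at −0.21 (adjusted p 0.089). CDC6 stood at 118, 122 and 128 FPKM in DMSO replicates 1 to 3 and at 79.2, 74.4 and 79.6 FPKM in the sunitinib-titled libraries. MCM10, which helps to start the fork, stood at 51.7, 56.5 and 62.8 FPKM and at 35, 35.4 and 35.1 FPKM. All sunitinib-titled values lay below all DMSO values. GINS2 fell 1.53-fold, MCM4 1.51-fold and ORC6 1.45-fold.

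E2F factors bind short GC-rich elements near the starts of these genes, and promoters holding such letters are shown for members that fell. The letters searched were TTTGGCGC, TTTCGCGC, TTTGGCGG and TTTCCCGC, on both strands of the same 300 bases. At least 1 of them occurred in 68.8% of licensing promoters, 43.5% of fork promoters, 33.3% of those of the E2F, RB and G1/S cyclin list, 25% of those of deoxynucleotide supply, 16.7% of those of mitotic and G2/M genes and 5.96% of those of all tested genes with an entry. Among all genes that fell the share was 9.59%, and among all that rose 2.78%. All 11 licensing genes with a match fell, as did 8 of 10 fork genes and 6 of 7 of the E2F list. With or without a match, 18 of 19, 19 of 25 and 18 of 26 genes of these lists fell. A match is a description of letters, not a site or a cause, and its relation to the falls was not tested. Capitals mark the matches, the sequences are RefSeq promoters of GRCh38.p14, and each ends at the start of transcription: CDC6 (chr17:40287779-40287878, plus strand), CDT1 (chr16:88803689-88803788, plus strand), E2F1 (chr20:33686386-33686485, minus strand) and CDC25A (chr3:48188418-48188517, minus strand).
CDC6: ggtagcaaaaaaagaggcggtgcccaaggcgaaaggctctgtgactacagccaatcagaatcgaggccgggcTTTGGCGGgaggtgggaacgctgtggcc
CDT1: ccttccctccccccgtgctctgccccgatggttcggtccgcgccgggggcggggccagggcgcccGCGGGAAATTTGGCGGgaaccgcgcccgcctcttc
E2F1: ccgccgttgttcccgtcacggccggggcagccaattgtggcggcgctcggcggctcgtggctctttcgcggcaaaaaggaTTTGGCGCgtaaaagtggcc
CDC25A: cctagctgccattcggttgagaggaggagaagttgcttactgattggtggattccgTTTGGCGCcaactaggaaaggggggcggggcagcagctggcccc

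CDT1 holds 2 adjoining matches on opposite strands, and the other promoters shown hold 1 each. CDT1, the loading factor destroyed at the onset of S phase, fell by 0.42 (adjusted p 0.00554). E2F1, itself an E2F target, stood at 91.4, 107 and 111 FPKM in DMSO and fell to 67.2, 64.4 and 65 FPKM. CDC25A, the phosphatase that activates CDK2, stood at 54.2, 59 and 64.6 FPKM and fell to 39.6, 37.7 and 37.2 FPKM.

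Of 26 genes of the E2F, RB and G1/S cyclin list, 18 fell and 0 rose as deposited (2 to 3 rose under the other scalings), with a median of −0.33. CCND3, a D-type cyclin used by T-lineage cells, stood at 284, 352 and 354 FPKM in DMSO and at 186, 188 and 179.7 FPKM in the sunitinib-titled libraries. CCND3 fell by 0.83 ± 0.081 (SE), with an adjusted p of 0.000749. In the MI-389-titled libraries it stood at 328 ± 8.59 FPKM (SD, n = 3), and the difference between the treated groups was −0.83 (adjusted p 2.64e-05). CCNE2, a partner of CDK2, stood at 71.3, 69.6 and 78.9 FPKM and fell to 43.6, 40.8 and 45.6 FPKM. E2F2 and the repressor E2F7 fell 1.54-fold and 1.39-fold. CDKN1B, the CDK inhibitor p27, and the E2F partner TFDP2 had differences of 0.10 and 0.15 that did not pass.

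At the replication fork, 19 of 25 genes fell, with a median of −0.35. CLSPN, the checkpoint mediator claspin, fell 1.6-fold, CHAF1B, a histone chaperone subunit, 1.49-fold, and FEN1, the flap nuclease, 1.45-fold. RPA1, which coats single-stranded DNA, and POLD2 had differences of −0.14 and −0.17 and overlapped. Of 9 genes of deoxynucleotide supply, 6 fell, with a median of −0.30. RRM2, the S-phase subunit of ribonucleotide reductase, stood at 234, 252 and 264 FPKM and fell to 149, 147 and 139 FPKM, 1.72-fold, while RRM1, its partner, fell 1.27-fold.

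Mitotic genes fell at about the background share. Of 30 mitotic and G2/M genes, 4 fell, which is 13.3% against the background of 16.9%, and none rose as deposited. With median centring 3 rose and 4 fell, and after quantile normalization or cyclic loess 6 rose and 5 fell. Those that fell as deposited were CCNA2 (by 0.30), MAD2L1 (by 0.29), CDK1 (by 0.27) and AURKB (by 0.23). TOP2A, the decatenating topoisomerase, stood at 294 ± 25.4 and 284 ± 10.4 FPKM (SD, n = 3; 95% interval of the log2 difference −0.20 to 0.11), and its difference turned positive with median centring. Of the 4, MAD2L1 alone passed without sunitinib-titled replicate 2 or 3, AURKB passed only when the library left out was DMSO replicate 1, and 11 of the list fell without DMSO replicate 1. The list median was −0.069 as deposited and 0.02 with median centring, so its sign depended on the scaling. The difference between the licensing and mitotic lists was not tested.

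**Figure D3:**
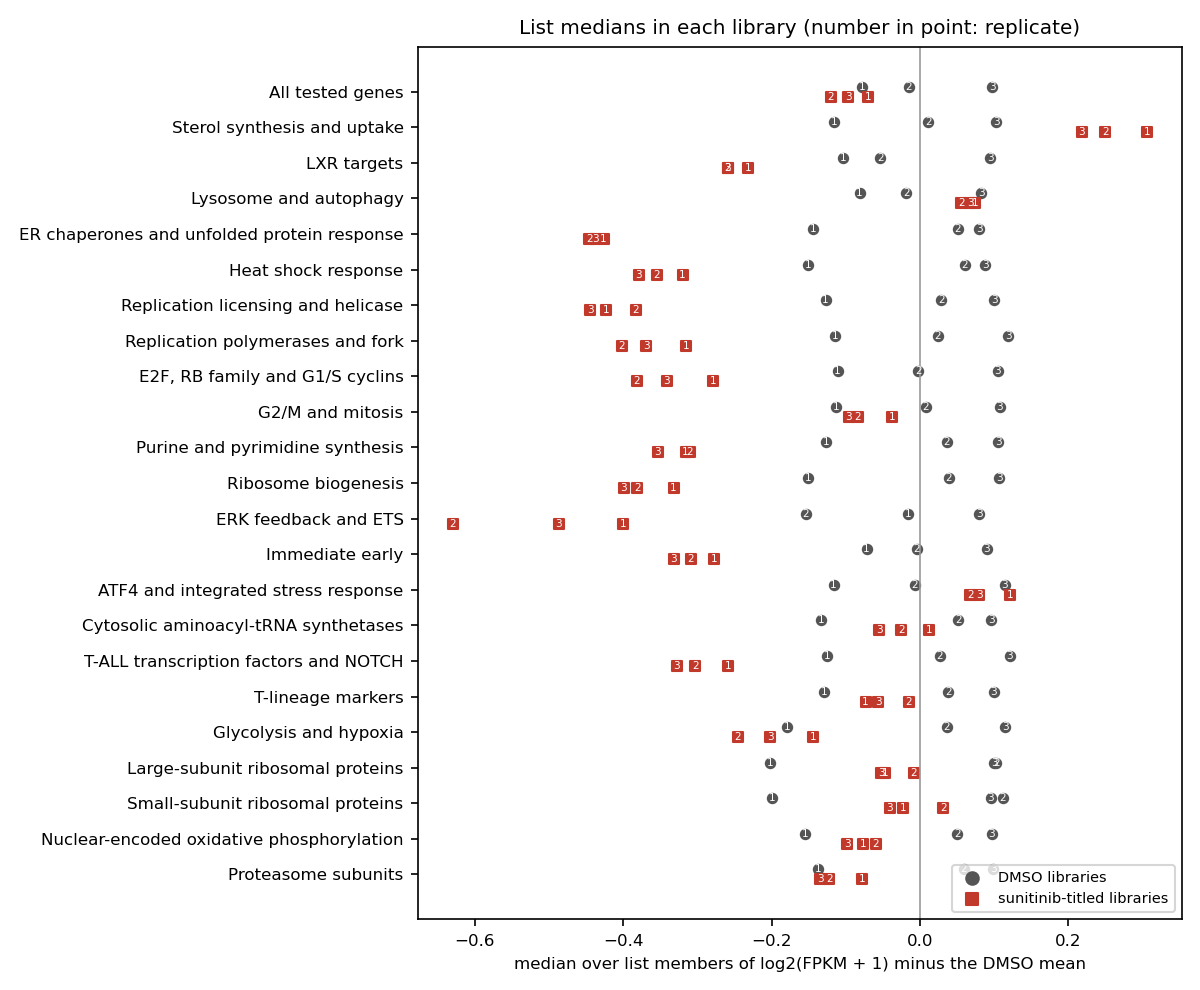
For each library, the median over the members of a list of its log2(FPKM + 1) value minus the mean of the DMSO libraries, with grey circles for DMSO, red squares for sunitinib-titled libraries and the replicate number inside. All 3 sunitinib-titled libraries lie outside the DMSO range for the sterol, ER, heat shock, replication, nucleotide, ribosome biogenesis, ERK feedback and T-ALL factor lists, and within it for the G2/M, aminoacyl-tRNA synthetase, ribosomal protein and oxidative phosphorylation lists.

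Purine and pyrimidine synthesis, which feeds both RNA and DNA, fell in 15 of 17 genes, with a median of −0.33. PPAT, which catalyses the committed step of purine synthesis, fell 1.42-fold, GMPS, the GMP synthetase, 1.41-fold, and UMPS, the last step to UMP, 1.27-fold. IMPDH1, an enzyme of GMP synthesis, fell 1.39-fold. IMPDH2, its more abundant relative, stood at 556 ± 55.8 FPKM in DMSO and 521 ± 9.48 FPKM in the sunitinib-titled libraries (SD, n = 3). Its difference of −0.089 did not pass (adjusted p 0.421). CAD, which starts pyrimidine synthesis, had a difference of −0.19 and did not pass (adjusted p 0.098). All 17 fell without DMSO replicate 1, and 9 without sunitinib-titled replicate 2 or 3.

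Ribosome biogenesis factors, which process ribosomal RNA and assemble subunits in the nucleolus, fell in 27 of 34 cases, with a median of −0.37. RRS1 and WDR12, assembly factors of the large subunit, fell 1.41-fold and 1.24-fold, and PNO1, a factor of the small subunit, 1.34-fold. DKC1, the pseudouridine synthase dyskerin, stood at 217, 243 and 249 FPKM in DMSO and fell to 181, 182 and 181 FPKM. NPM1 and FBL, 2 of the most abundant nucleolar proteins, had differences of −0.25 and −0.21 and did not pass. The E-box CACGTG, which MYC and MAX bind, occurred in 41.4% of the promoters of this list and 10.7% of tested promoters, searched on both strands of the 300 bases. It was not particular to this list: the share was 36.8% in the lysosome and autophagy list, which did not fall. It was 13.3% among all genes that fell and 10.6% among all that rose.

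MYC, the transcription factor that drives ribosome and nucleotide synthesis, stood at 299.7, 340.2 and 352 FPKM in DMSO replicates 1 to 3 and at 238, 237 and 234 FPKM in the sunitinib-titled libraries. The sunitinib-titled values lay close together and below every vehicle library. MYC fell by 0.48 ± 0.064 (SE; adjusted p 0.00274). In the MYC and MAX network, 4 of 10 genes fell, MYCN and the repressor MNT among them, by 0.61 and 0.41. MXD4, which competes with MYC for MAX, rose 1.44-fold, from 34, 36.1 and 40.6 FPKM to 53.1, 53.6 and 52.8 FPKM.

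Polyamine genes fell in 5 of 8 cases, and 1 rose (median −0.23). ODC1, the rate-limiting decarboxylase, AMD1, which supplies the aminopropyl donor, and SRM, the spermidine synthase, fell 1.3-fold, 1.3-fold and 1.39-fold. SAT1, which acetylates polyamines for export and breakdown, rose 1.23-fold. OAZ2, an antizyme that inhibits ODC1, had a difference of 0.14 and overlapped. Without sunitinib-titled replicate 2 the count of falls was 3.

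Feedback inhibitors and ETS factors of the ERK pathway fell in all 8 cases tested, against a background of 16.9%, and 7 further members lay below the tested level. DUSP6, the phosphatase that inactivates ERK, stood at 5.53, 4.45 and 4.27 FPKM in DMSO replicates 1 to 3 and at 1.74, 1.79 and 1.43 FPKM in the sunitinib-titled libraries. DUSP6 fell by 1.11 ± 0.10 (SE; adjusted p 0.000601). ETV5, an ETS factor, stood at 1.78, 1.45 and 2.33 FPKM and fell to 0.629, 0.67 and 0.63 FPKM. SPRY2 and SPRY1, inhibitors of receptor kinase signalling, fell by 0.54 and 0.44, and SPRED1, SPRED2, DUSP5 and DUSP7 by 0.42 to 0.49. DUSP5, SPRED2 and SPRY1 did not pass without sunitinib-titled replicate 2 (adjusted p 0.151, 0.0595 and 0.0529). DUSP5 also did not pass without DMSO replicate 1, DMSO replicate 3 or sunitinib-titled replicate 3 (adjusted p 0.0836, 0.101 and 0.119) or with median centring (0.0661), nor SPRY1 without DMSO replicate 3 (0.0548). For the members at a few FPKM, the log2(FPKM + 1) scale understates the fold change: the DUSP6 means differed 2.87-fold and those of ETV5 2.88-fold.

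Immediate early genes, which respond to growth signals within minutes, fell in 9 of 16 cases, with a median of −0.33. JUN, a subunit of AP-1, stood at 6.04, 6.15 and 7.59 FPKM in DMSO and at 3.9, 2.84 and 3.33 FPKM in the sunitinib-titled libraries, and fell by 0.80. CD69, an early activation antigen of lymphocytes, stood at 27, 25.1 and 26.8 FPKM and fell to 17.2, 16.3 and 16.3 FPKM. JUNB, IER2 and DUSP2 fell by 0.40, 0.36 and 0.44. BTG2, an antiproliferative gene, was the only member that rose. It stood at 18, 17.4 and 17.1 FPKM in DMSO and at 33.8, 32.7 and 32.9 FPKM in the sunitinib-titled libraries, a rise of 0.88 ± 0.058 (SE; adjusted p 0.000247). KLF2, a quiescence factor of T cells, was below the tested level, at 0.458, 0.717 and 0.766 FPKM in DMSO and 0.20, 0.188 and 0.292 FPKM in the sunitinib-titled libraries.

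Genes of the FOXO and PI3K pathway, many of which FOXO factors raise when AKT is inactive, rose in 4 of 17 cases, which is 23.5% against a background of 2.37%. The 3 that fell are 17.6%, near the background of 16.9%. With median centring 8 rose and 2 fell, and after quantile normalization or cyclic loess 8 rose and 3 fell. PIK3IP1, an inhibitor of PI3K, stood at 0.945, 1.2 and 1.35 FPKM and rose to 2.34, 2.31 and 2.12 FPKM. TSC22D3, the glucocorticoid-induced leucine zipper, rose 1.94-fold, SESN3, an inhibitor of mTORC1, 1.6-fold, and CCNG2, a cyclin of resting cells, 1.38-fold. BCL2L11, also of the BCL2 family list below, was among the 3 that fell, by 0.47 (adjusted p 0.00302). The median of the list was 0.029 and turned to −0.03 without sunitinib-titled replicate 1. TXNIP, a glucose-regulated arrestin, had a difference of 0.10 (95% interval −0.046 to 0.24) and overlapped.

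Of 27 glycolysis and hypoxia genes, 9 fell and 0 rose, with a median of −0.23. ADM, the hypoxia-induced peptide adrenomedullin, stood at 5.49, 4.42 and 4.76 FPKM and fell to 2.99, 1.81 and 2.08 FPKM. PDK1, which blocks entry of pyruvate into mitochondria, fell 1.42-fold, the hexokinase HK2 1.37-fold, the lactate dehydrogenase LDHA 1.32-fold and the glucose transporter SLC2A1 1.27-fold. GAPDH and ALDOA, the most abundant uncalled members, had differences of −0.13 and −0.23. Without DMSO replicate 1, 18 of the list fell, and without sunitinib-titled replicate 2, 5, with LDHA no longer among them (adjusted p 0.0533).

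The ATF4 programme, which restores amino acid supply under stress, rose in 8 of 27 genes, which is 29.6% against a background of 2.37%. The 4 that fell are 14.8%, against a background of 16.9%. Rises numbered 12 with median centring, 14 after quantile normalization and 15 after cyclic loess, with 2 falls in each. The median was 0.077, or −0.01 without DMSO replicate 1. CHAC1, a glutathione-degrading enzyme, stood at 1.23, 1.38 and 2.82 FPKM in DMSO and at 3.86, 4.21 and 3.98 FPKM in the sunitinib-titled libraries, a rise from a low level. PCK2, the mitochondrial PEP carboxykinase, stood at 6.38, 8.09 and 8.39 FPKM and rose to 13.5, 13.8 and 13.6 FPKM. SLC7A11, the cystine importer, ASNS, the asparagine synthetase, and PSAT1, an enzyme of serine synthesis, rose 1.56-fold, 1.3-fold and 1.23-fold. ATF4 itself stood at 581, 700.2 and 731 FPKM and at 763, 774 and 740.2 FPKM; it did not overlap between groups and did not pass (difference 0.18, adjusted p 0.141). SLC7A1, an arginine importer, fell 1.3-fold, but not without sunitinib-titled replicate 2 or 3 (adjusted p 0.0618 and 0.0568). Rises numbered 5 without DMSO replicate 2 or sunitinib-titled replicate 1. Falls numbered 7 without DMSO replicate 1, 0 without sunitinib-titled replicate 2, and 1 without any 1 of DMSO replicate 3 and sunitinib-titled replicates 1 and 3.

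ASS1, the argininosuccinate synthase that makes arginine from citrulline, was among the largest rises. It stood at 7.48, 8.33 and 7.66 FPKM in DMSO and at 14.9, 16.6 and 14.8 FPKM in the sunitinib-titled libraries, a rise of 0.90 ± 0.071 (SE; adjusted p 0.000426). Cytosolic aminoacyl-tRNA synthetases, which charge transfer RNAs, rose in 4 and fell in 3 of 20 cases, or 20% and 15%. Rises numbered 6 with median centring, 11 after quantile normalization and 12 after cyclic loess. In that order of scalings, 1, 4 and 3 fell. CARS, for cysteine, and AARS, for alanine, rose 1.42-fold and 1.29-fold, and FARSB, a subunit of the phenylalanine enzyme, fell 1.34-fold. AARS did not pass without sunitinib-titled replicate 2 (adjusted p 0.0517), where 1 gene of the list rose, and 2 rose when replicate 1 or 3 of that group was left out. The count of falls was 8 without DMSO replicate 1 and 1 without any other library. The list median was −0.02 as deposited and 0.07 with median centring.

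Among transcription factors of T-ALL and NOTCH targets, 11 of 18 fell and none rose, with a median of −0.30. HES1, a NOTCH target and repressor, stood at 52.7, 61.2 and 56.3 FPKM and fell to 37.7, 35 and 34.8 FPKM. LMO2, a T-ALL oncogene, stood at 9.05, 11.3 and 9.48 FPKM and fell to 5.98, 6.1 and 5.28 FPKM. TAL1, which forms a complex with LMO2, and MYB and GATA3, which act in the same circuit, fell by 0.43, 0.46 and 0.36. ETS1, a factor abundant in lymphocytes, had a difference of −0.16 and did not pass. Without sunitinib-titled replicate 3 the count of falls was 7.

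Of 23 T-lineage markers, 4 rose and 4 fell. Each is 17.4%, against backgrounds of 2.37% higher and 16.9% lower. Rises numbered 6 with median centring, 10 after quantile normalization and 11 after cyclic loess. In that order of scalings, 4, 3 and 4 fell. RAG1, the recombinase of antigen receptor genes, stood at 53.5, 57.1 and 61.4 FPKM and rose to 90.1, 87.6 and 82.2 FPKM, and its partner RAG2 rose 1.34-fold. CD1A, a lipid-presenting protein of cortical thymocytes, fell 1.22-fold, though not without sunitinib-titled replicate 2 or 3 (adjusted p 0.0565 and 0.0572), and CD3D, a subunit of the receptor complex, had a difference of −0.15 and overlapped. Falls numbered 11, 2 and 1 when DMSO replicate 1, 2 or 3 was left out, and 0 and 1 when sunitinib-titled replicate 2 or 3 was. Rises numbered 2 without DMSO replicate 1 or any sunitinib-titled library. The summed level of the markers was 6689 to 8207 FPKM in DMSO and 7129 to 7467 FPKM in the sunitinib-titled libraries. IKZF1, a lymphoid factor degraded through cereblon by related drugs, fell by 0.32 (adjusted p 0.0103).

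Genes of the TNF and NF-kB pathway fell in 5 of 14 cases, with a median of −0.23. CD83, a maturation marker of immune cells, stood at 18.3, 20.7 and 22.4 FPKM and fell to 10.8, 12.7 and 11.3 FPKM. LTB, lymphotoxin beta, fell 1.35-fold. The count was 3 without DMSO replicate 2 or 3 or sunitinib-titled replicate 1, and 2 without sunitinib-titled replicate 2 or 3. TNFRSF8, the receptor CD30, is not a member of this list and not among the 5. It stood at 9.93, 11 and 11.6 FPKM in DMSO replicates 1 to 3 and at 4.23, 3.65 and 4.65 FPKM in the sunitinib-titled libraries, a fall of 1.20 ± 0.11 (SE; adjusted p 0.000647).

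In the BCL2 family, 1 of 13 genes rose and 4 fell; 2 rose with median centring and 5 after quantile normalization or cyclic loess. BMF, a death-promoting BH3 protein, stood at 2.4, 2.49 and 2.93 FPKM and rose to 4.9, 5.22 and 4.42 FPKM. BCL2, which blocks apoptosis, and BCL2L11, the BH3 protein BIM, both fell, by 0.54 and 0.47. They were the 2 that fell without sunitinib-titled replicate 2 or 3. Of 16 p53 targets, 2 rose and 3 fell. TP53INP1, a stress protein, rose 1.93-fold and CCNG1 1.2-fold, while AEN, a nuclease, fell 1.53-fold. AEN was the 1 gene of the list that fell without sunitinib-titled replicate 2 or 3.

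Interferon-stimulated genes rose in 5 of 23 cases, with no fall, against a background of 2.37% higher. Rises numbered 10 with median centring, 11 after quantile normalization and 11 after cyclic loess, with no fall in any, against the larger backgrounds of higher calls that those scalings give. IFIT2 stood at 7.98, 7.11 and 6.94 FPKM and rose to 10.6, 10.4 and 10.3 FPKM, and STAT2, a subunit of the factor that drives these genes, rose 1.31-fold. The count of rises was 2 without DMSO replicate 2 or any sunitinib-titled library, and 3 without DMSO replicate 3. IFI6, an abundant member, had a difference of 0.14 and overlapped. Without DMSO replicate 1, 6 rose and 3 fell, and the list median turned from 0.068 to −0.003.

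No gene for a structural protein of the ribosome passed. By limma, 0 of 45 large-subunit and 0 of 31 small-subunit genes had an adjusted p under 0.05, 2 and 1 had an unadjusted p under 0.05, and the medians were −0.032 and −0.00032. RPLP1, a protein of the ribosomal stalk, had a difference of −0.11 (95% interval −0.32 to 0.10). DMSO replicate 1 was the lowest library for these lists, by −0.20 and −0.20 against the DMSO mean. Without it, 32 of the large-subunit and 19 of the small-subunit genes were called lower. After cyclic loess, 26 and 20 were called higher, so no direction is given for them.

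Nuclear-encoded genes of oxidative phosphorylation fell in 2 of 32 cases, and in 22 without DMSO replicate 1, while 14 rose after cyclic loess. Proteasome subunits, of which 6 rose after quantile normalization or cyclic loess, fell in 8 of 31 cases, which is 25.8% against the background of 16.9%, with a median of −0.12 that turned to 0.02 after cyclic loess. None fell without sunitinib-titled replicate 2 or 3, 1 or 2 without DMSO replicate 2 or 3 or sunitinib-titled replicate 1, and 28 without DMSO replicate 1, so these calls turned on single libraries. Targets of NRF2, the factor that responds to oxidants, fell in 4 of 15 cases, among them GCLM, a subunit of the enzyme that makes the glutathione precursor, by 0.34. That count was 11 without DMSO replicate 1, 1 without DMSO replicate 2 or 3 or sunitinib-titled replicate 1 or 2, and 2 without sunitinib-titled replicate 3.

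GSPT1, the translation termination factor named in the series title, stood at 59, 63.8 and 66.8 FPKM in DMSO and at 53.6, 48.4 and 50.1 FPKM in the sunitinib-titled libraries. GSPT1 transcript fell by 0.31 ± 0.061 (SE; adjusted p 0.00969), and the groups did not overlap. The libraries hold transcripts and give no protein level. CRBN, which encodes cereblon, stood at 37.5, 37.2 and 39.6 FPKM and at 37.6, 38.3 and 38 FPKM, with a difference of −0.0054 (95% interval −0.14 to 0.12) that turned positive after cyclic loess, quantile normalization or median centring and did not pass in any of them. ETF1, the partner of GSPT1, had a difference of −0.22 and did not pass (adjusted p 0.0538). Of 11 genes of the cereblon ligase, its known substrates and termination, 3 fell: GSPT1, IKZF1 and CUL4A, a cullin scaffold, by 0.18. CUL4A did not pass after quantile normalization or cyclic loess, or when any library other than DMSO replicate 1 was left out (adjusted p up to 0.149). Without DMSO replicate 1, 6 fell.

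**Figure D4:**
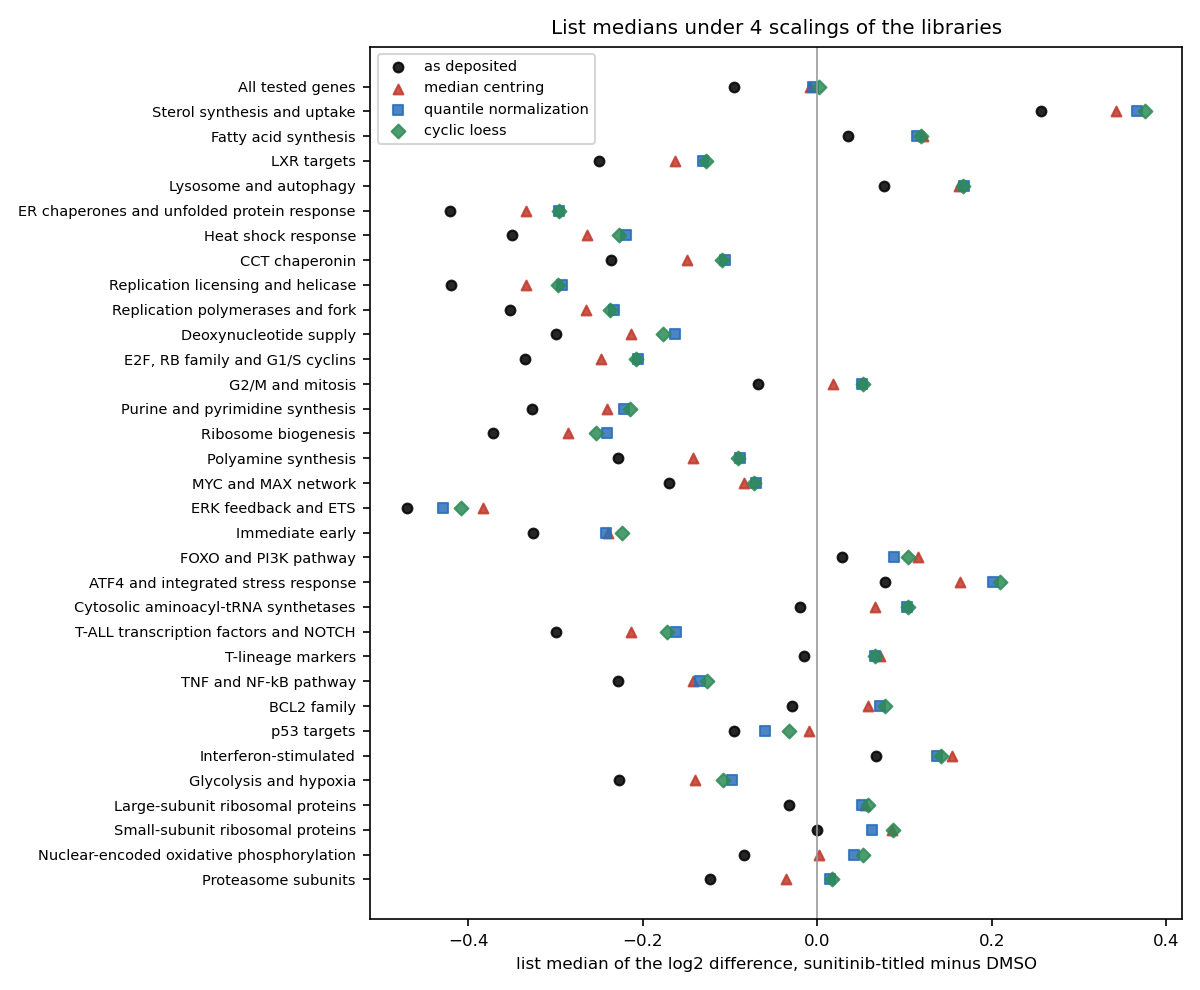
List medians of the log2 difference between sunitinib-titled and DMSO libraries, as deposited (black circles), after median centring (red triangles), after quantile normalization (blue squares) and after cyclic loess (green diamonds). The sterol list keeps a positive and the ER, heat shock, licensing, fork, ribosome biogenesis and ERK lists a negative median under all 4. The G2/M, synthetase, T-lineage, BCL2, oxidative phosphorylation, proteasome, large-subunit and small-subunit ribosomal protein medians change sign, as does that of all tested genes.

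Against the MI-389-titled libraries, 20.3% of the 12301 genes were higher and 36% lower in the sunitinib-titled libraries by the same test, a share of higher calls of 36.1% that became 59.7% with median centring. The doses in the source field differ and are not matched, so the values stand side by side. Of the 26 sterol genes, 20 were higher than in the MI-389-titled libraries and 0 lower. HMGCS1 was at 52.7 ± 1.87 FPKM in the MI-389-titled libraries and LSS at 40.6 ± 2.54 FPKM (SD, n = 3), against 95.1 ± 2.57 and 89.2 ± 4.19 FPKM in the sunitinib-titled libraries. Of 19 licensing genes, 3 were higher and 9 lower than in the MI-389-titled libraries. JUN was at 794 ± 23.1 FPKM in the MI-389-titled libraries against 3.36 ± 0.534 FPKM, and CHAC1 at 149.7 ± 7.3 FPKM against 4.02 ± 0.179 FPKM. HSPA5 was at 95.6 ± 3.98 FPKM there, so the sunitinib-titled level lay between it and vehicle.

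Some of the largest changes fell outside these lists. MIR17HG, the host transcript of the miR-17-92 cluster of microRNAs, stood at 23.4, 22.3 and 27.7 FPKM in DMSO and fell to 13.2, 11.3 and 15.5 FPKM. SIX6, a homeobox gene, stood at 94.7, 111 and 125 FPKM and fell to 58.8, 56.5 and 59.98 FPKM. ISG20, an exonuclease, and DYRK1B, a kinase of resting cells, rose 1.69-fold and 1.68-fold. BGLAP, TPI1P3 and IGLL3P fell by 2.42, 0.81 and 1.05, but the first overlaps a readthrough gene and the others are pseudogenes, so reads may be shared.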

How the data were processed

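RNA of MOLT4 cells was isolated with spike-in RNA added by cell number and made into polyA libraries with a SMARTer low-input kit, which does not mark strand, per the labels' protocols. Per the submitters' processing notes, HISAT, Cufflinks 2.0.0 and hg19 were used, and how libraries were normalized is not given in the sources used here. Values were deposited as FPKM, 1 column a library, with undetected rows at 0.0989 to 0.104 FPKM. FPKM totals do not give depth; steps of low values put the sunitinib-titled libraries at about 1.43 times the depth of DMSO (estimated from 145 genes). Of 23621 gene rows, 12301 averaged 1 FPKM or more across all 9 libraries. These were tested two-sided with limma 3.58.1 (R 4.3.3) on log2(FPKM + 1), in a model of the 3 groups with a trend in the variance, and p-values were adjusted by the Benjamini-Hochberg method. Differences on this scale understate changes of low genes; fold changes are ratios of mean FPKM. Library medians were compared by exact permutation.

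The members and the 40 gene lists were chosen with earlier results of these data known. Named genes are a selection from the 12 largest rises and 12 largest falls that reached a mean of 5 FPKM in the higher group without overlap, the 6 called members of each list with the smallest adjusted p, its 2 most abundant uncalled members, all members of lists of at most 12, and a few genes set by name, among them GSPT1, CRBN, MYC, INSIG1, DUSP6, CCND3, TXNIP and KLF2; some genes that the rule names are not reported here. The 247 tested rows of short non-coding RNAs were not named. Symbols were used as deposited, and 12019 matched RefSeq names. Promoters were the first RefSeq entry of a gene in GRCh38.p14 (9599 tested genes, 27305 entries in all), 250 bases before to 50 after the start. Alternatives were other pseudocounts, filters, scalings, variance settings, the 6 libraries alone, a replicate block, and each library left out in turn. On data simulated for this comparison over 12301 genes, the model recovered 100 of 100 genes changed by 1 on the log2 scale and 85 of 100 changed by 0.5, and 5.13% of calls were false. The simulated noise was independent for each gene and library. It held no deviation shared by many genes of a library, such as that of DMSO replicate 1, so this false share does not cover such deviations. Python 3.11.15, pandas 2.3.3 and matplotlib 3.10.9 were used for lists and figures.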

Additional observations from a re-analysis of the deposited data

How the results depend on the processing

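Of 12301 genes, 2370 passed between sunitinib-titled and DMSO libraries. The count was 1423 with no filter on low values, 1360 with the 6 compared libraries alone, 3677 after quantile normalization (1696 higher, 1981 lower) and 3814 after cyclic loess (1852 higher, 1962 lower). Leaving out 1 library gave 948 (without sunitinib-titled replicate 2) to 4250 (without DMSO replicate 1). The causes were not tested. Between the treated groups the count was 5959 to 8217 over the alternatives, against 6927. The difference of library medians, −0.086 (4.58 ± 0.025 in sunitinib-titled and 4.66 ± 0.089 in DMSO libraries, SD, n = 3), had an exact two-sided permutation p of 0.2, where 0.1 is the smallest possible.

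Counts of falls that moved by over 1.5 times with no filter on low values included those of the ERK list (5 against 8), immediate early genes (5 against 9), CCT subunits (2 against 5), NF-kB genes (3 against 5), NRF2 targets (1 against 4) and proteasome subunits (2 against 8). With the 6 compared libraries alone, 2 CCT, 2 NF-kB, 1 NRF2 and 0 proteasome genes fell, and 5 ATF4 and 2 fatty acid genes rose. Of the 132 genes named with values that passed, 114 also passed in each of the 6 fits that left out a library. Among genes that had not passed, signs turned for ACLY without DMSO replicate 1 (−0.057), for CRBN after cyclic loess (0.100), quantile normalization (0.0894) and median centring (0.0811), and for TOP2A with the same scalings (0.0913, 0.066 and 0.0377). Leaving out 1 library gave −0.0222 to 0.0224 for CRBN and −0.117 to 0.00776 for TOP2A. Libraries with the same replicate number did not deviate together (correlations of −0.04, 0.09 and 0.10), so the numbers were not taken to pair them; with a replicate block the count was 1941, 244 higher and 1697 lower, and not every library correlated best with its own number. FPKM carry no read counts, so the precision of values near the floor is unknown.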

Other observations

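Some lists gave few calls. Of 8 tested JAK-STAT target genes, 1 fell, PIM1, a survival kinase (log2 difference −0.41), which did not pass with median centring or when any library other than DMSO replicate 1 was left out. Of 6 targets of the glucose-sensing factor MondoA and related arrestin-domain genes, 1 rose and 2 fell. Without DMSO replicate 2 or 3, or any sunitinib-titled library, none of the MondoA targets passed.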
